A study of Mus musculus with 6 samples.

Results

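The genes of respiratory complexes II to V were followed in mouse embryonic stem cells, a pluripotent cell type taken from the blastocyst. Members were chosen by a rule on names, with earlier results of these data known. A name counted when it began with Uqcr, Cox4 to Cox8 or Atp5, or was 1 of the 4 succinate dehydrogenase genes Sdha to Sdhd, Cyc1 or Cycs, with pseudogenes left out. The rule found 48 genes on 50 of 62490 loci, out of 49415 names in all. Complex II had 4 members, complex III 9, complex IV 17 and complex V 17, and the last one was Cycs, the gene of cytochrome c. Cox4i1, another subunit of complex IV, is not analysed here.

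The groups were cells given 1 µM of VD3 (1α,25-dihydroxyvitamin D3, the active form of vitamin D) together with 100 µM of MM-401 for 5 days, cells given 1 µM of VD3 alone for 5 days, and untreated cells. MM-401 inhibits the MLL1 histone methyltransferase. Every group was of the C57BL/6J strain with the genotype Mll1fl/fl; Cre-ER TM and grew with leukemia inhibitory factor on mouse embryonic fibroblast feeders, in medium with 15% serum or 20% serum replacement. The labels give no group with MM-401 alone, and they do not say how many clones the line holds. Each group had 2 RNA libraries, called biological duplicates, but the deposited tables hold 1 pooled column a group, so the spread between replicates is unknown and no p-value is given. The names of the untreated and of the combined column hold a part that the labels do not explain, and another meaning of it would change every comparison with them.

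Complex II (succinate dehydrogenase) passes electrons from succinate to ubiquinone, complex III passes them to cytochrome c, and complex IV (cytochrome c oxidase) passes them to oxygen. Complexes III and IV pump protons, and complex V, the ATP synthase, uses the proton gradient to make ATP. Most subunits are encoded in the nucleus and a few in the mitochondrial genome. Many nuclear subunit genes are known to carry sites for NRF1, for the ETS factor GABP and for YY1 in their promoters. Embryonic stem cells make much of their ATP by glycolysis but hold a working respiratory chain.

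The level of a gene is given as FPKM, fragments scaled to transcript length and to library depth, as deposited. A difference is the log2 ratio of FPKM + 1 minus that of the median gene of the comparison, here called the relative log2 difference; the + 1 understates the difference of low genes. Genes are called higher or lower where this difference reached 1 in size (2-fold). The 10393 names with a mean of at least 5 FPKM over the pools were compared, and 40 of the 48 members were among them. The 8 members below that level were Cycs, Cox4i2, Cox6a2, Cox7b2, Cox8b, Cox8c, Atp5g2 and Atp5l. Atp5g1 passed it, at 11.1 FPKM with VD3 plus MM-401, 9.08 with VD3 and 4.75 in untreated cells.

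The pools held 73499639 (VD3 plus MM-401), 73636342 (VD3) and 62284598 (untreated) estimated counts, of which the members took 1.33%, 1.14% and 0.858%. By the authors' variance, the standard deviation of the count of the median member was 19.3%, 16.9% and 16.9%. The 8 pluripotency markers were present in each pool, with Pou5f1 at 1832, 2053 and 1114 FPKM in the same order, and with median relative differences (defined above) of 0.09 with VD3 plus MM-401 and -0.06 with VD3 against untreated. The 15 fibroblast markers summed to 20.9, 26.9 and 19.1 FPKM, with at least 2 at 0 in each pool. Before centring, the median gene stood 0.27 above untreated with VD3 plus MM-401 and 0.37 with VD3, and 0.02 above VD3 with VD3 plus MM-401, on the log2 scale. The 3 comparisons share pools and are not independent of one another. In bulk RNA, fewer cells of a type and less RNA per cell cannot be told apart.

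With VD3 plus MM-401 against untreated cells, 12 of the 40 members were at least 2-fold higher and 0 were lower. Among all 10393 names, 6.01% were higher and 7.81% lower. The median member stood 0.86 above the median gene, 37 of 40 members were above it, and 9.13% of all names lay above the median member. For 8 of the 12 the authors' confidence intervals also did not overlap, against 2.63% of all names that were higher and 1.9% that were lower in this way. The 12 were Uqcrq of complex III, Cox6b1, Cox6b2, Cox6c, Cox7a2 and Cox8a of complex IV, and Atp5b, Atp5e, Atp5h, Atp5j, Atp5j2 and Atp5k of complex V. The median was 0.70 in complex II, 0.59 in complex III, 0.93 in complex IV and 0.85 in complex V, and this order changed after adjustment (below).

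With VD3 alone against untreated cells, 0 members were 2-fold higher and 0 were lower, while 0.914% of all names were higher and 11.3% lower (0.337% and 3.31% with intervals apart). The median member stood 0.31 above the median gene and 34 of 40 were above it, and 19.1% of all names lay above the median member. The medians by complex were close together, at 0.40 for complex II, 0.32 for III, 0.29 for IV and 0.30 for V. With VD3 plus MM-401 against VD3, 1 member, Cox7c, was 2-fold higher and 0 were lower, against 3.78% and 1.68% of all names (0.702% and 0.385% with intervals apart). The median member stood 0.52 above the median gene, and 35 of 40 were above it. Complex II had a median of 0.12 there, complex III 0.37, complex IV 0.68 and complex V 0.52.

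The FPKM values of the members were ordered in much the same way. In 36 of 40 members the highest value was that of the VD3 plus MM-401 pool, in 4 that of the VD3 pool and in 0 that of the untreated pool. Among all names compared, these shares were 39.7%, 40.6% and 19.7%. The 34 complex I subunit genes had medians of 1.02 with VD3 plus MM-401 and 0.25 with VD3 against untreated cells.

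**Figure D1:**
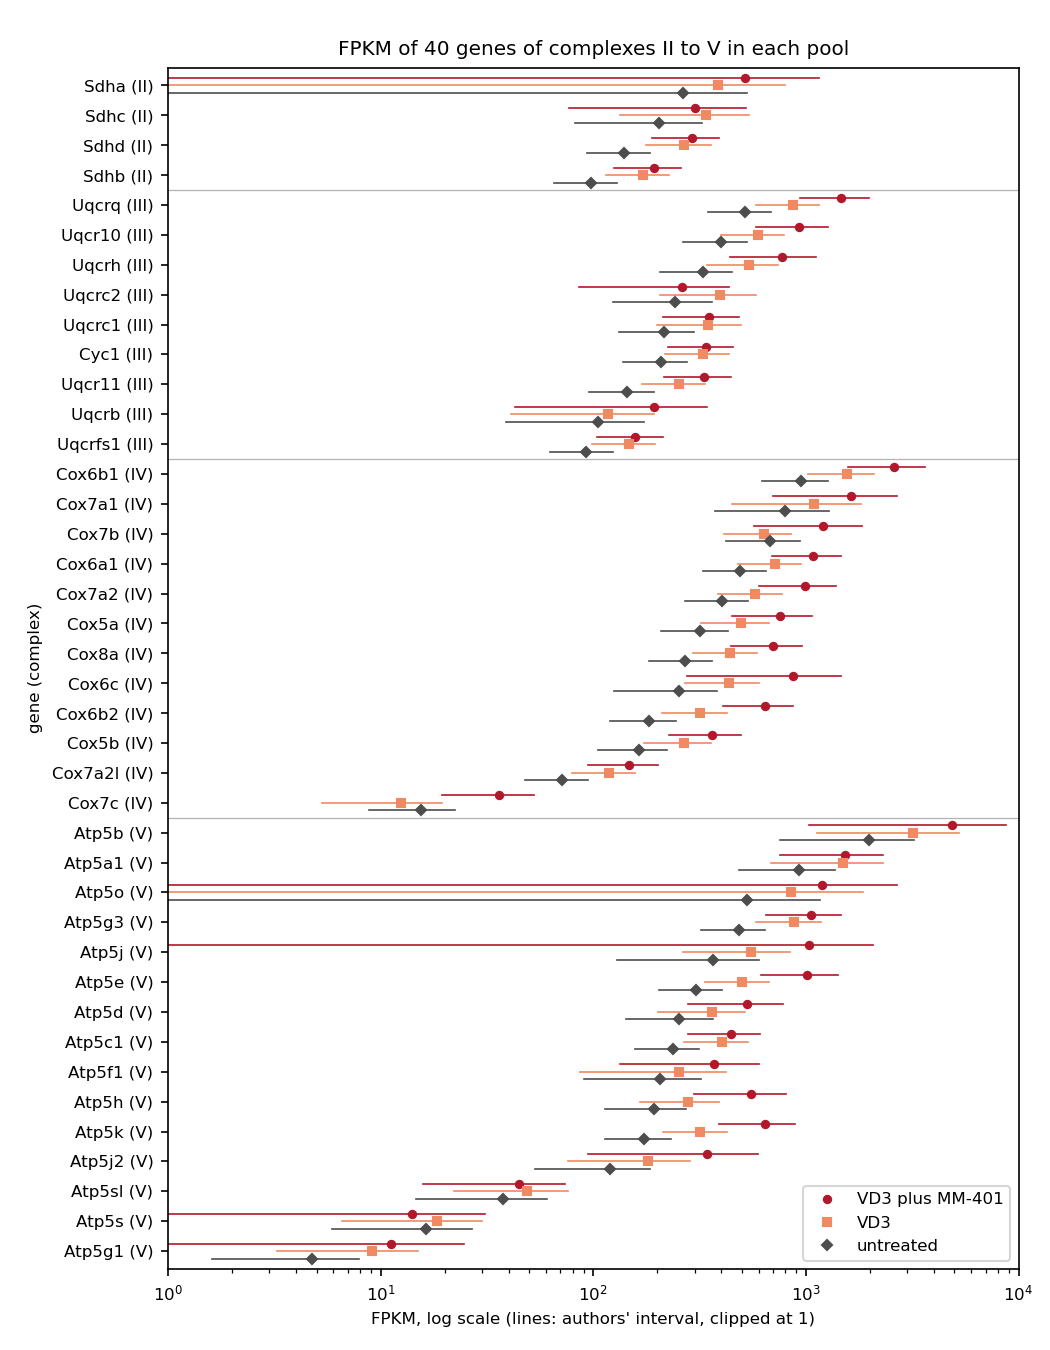
FPKM (log axis) of the 40 members that were compared, by complex and then by level, with 1 point for each pool: VD3 plus MM-401, VD3 and untreated from top to bottom within a gene. Lines are the authors' confidence intervals, drawn from 1 FPKM where they reach lower; most genes stand highest with VD3 plus MM-401 while many lines overlap.

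**Figure D2:**
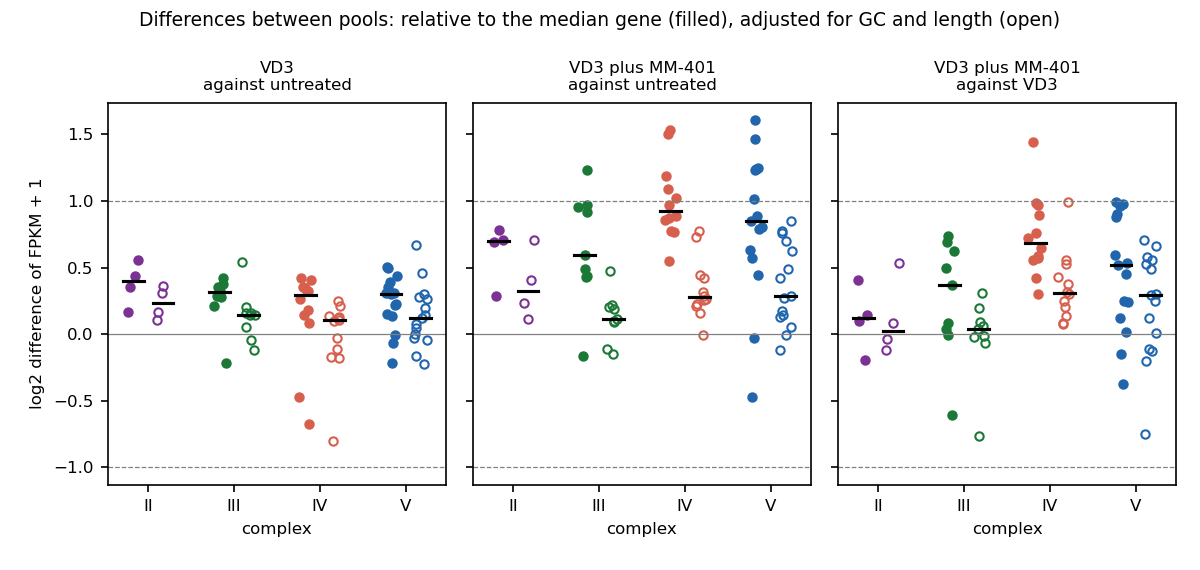
Relative log2 difference of each member compared (filled) and the same difference after subtracting the median of genes of like GC content and length (open), by complex and comparison; black bars are medians and dashed lines mark 2-fold. The 12 filled points above the upper line in the middle panel are the members 2-fold higher with both agents than without any, and no open point lies above it.

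Promoter sequence is shown for the 3 members with the largest difference between VD3 plus MM-401 and untreated cells that have a promoter entry in RefSeq. These are Atp5k, Cox6b2 and Atp5e, and the GRCm38.p6 windows run from 250 bases before the annotated start to 30 bases from it, 5′ to 3′ on the gene's own strand. Capitals mark exact matches to the core letters searched, on either strand: GCATGCGC for NRF1, CCGGAAG for ETS factors such as GABP and AAGATGGCG for YY1.
Atp5k, chr5:108434370-108434649, minus strand: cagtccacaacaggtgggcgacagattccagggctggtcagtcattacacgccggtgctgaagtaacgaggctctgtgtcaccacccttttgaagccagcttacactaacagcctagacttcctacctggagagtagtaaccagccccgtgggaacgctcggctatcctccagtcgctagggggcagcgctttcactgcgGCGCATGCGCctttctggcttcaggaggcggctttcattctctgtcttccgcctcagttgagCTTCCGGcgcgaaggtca
Cox6b2, chr7:4753065-4753344, minus strand: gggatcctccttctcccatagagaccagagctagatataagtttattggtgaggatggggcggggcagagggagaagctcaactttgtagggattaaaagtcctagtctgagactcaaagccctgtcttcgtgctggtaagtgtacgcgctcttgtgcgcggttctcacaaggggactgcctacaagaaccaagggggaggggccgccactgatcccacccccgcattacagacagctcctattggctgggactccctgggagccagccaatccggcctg
Atp5e, chr2:174464072-174464351, minus strand: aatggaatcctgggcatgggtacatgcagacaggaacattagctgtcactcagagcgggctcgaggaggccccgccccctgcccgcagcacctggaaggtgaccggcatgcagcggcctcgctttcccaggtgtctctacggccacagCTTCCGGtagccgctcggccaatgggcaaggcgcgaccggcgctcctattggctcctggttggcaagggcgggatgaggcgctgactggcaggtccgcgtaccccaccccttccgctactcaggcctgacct
The Atp5k window holds NRF1 letters on both strands, overlapping in 1 palindrome that begins 50 bases before the start, and ETS letters just after the start. The Atp5e window holds ETS letters beginning 102 bases before the start, and the Cox6b2 window holds none of the searched letters.

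RefSeq promoters of 300 bases (250 before the start and 50 from it) were at hand for 36 members. The NRF1 letters were present in 8 of them (22.2%), against 3.94% of 17492 protein-coding genes. The ETS letters were present in 12 (33.3%), against 12.9% of those genes, and the YY1 letters in 3 (8.33%), against 2.14%. Among the 10 members with a promoter entry that were 2-fold higher with VD3 plus MM-401, 1 held the NRF1 letters, 6 the ETS letters and 2 the YY1 letters. A match describes letters and is not evidence of binding.

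Complex II held its subunits at 193 to 518 FPKM with VD3 plus MM-401, 171 to 386 with VD3 and 97.4 to 265 in untreated cells. Sdha (chromosome 13, 74322254 to 74350280), the flavoprotein that oxidises succinate, stood at 518, 386 and 265 FPKM in this order of pools. Its relative log2 difference was 0.69 with VD3 plus MM-401 and 0.17 with VD3 against untreated. The authors' intervals of Sdha began at 0 in every pool, so its levels are not resolved. Sdhb (chromosome 4, 140961203 to 140979193), the iron-sulphur subunit, stood at 193, 171 and 97.4 FPKM, and its relative difference was 0.70 and 0.44. Between the treated pools Sdhb differed by 0.14. Sdha differed by 0.40 there by FPKM but by -0.29 by count, so the sign of its difference rests on the unit.

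The other two subunits of complex II anchor it in the inner membrane. Sdhd (chromosome 9, 50596357 to 50603812) stood at 290 FPKM with VD3 plus MM-401 (authors' interval 189 to 391), 267 with VD3 (176 to 358) and 139 in untreated cells (93.5 to 185). The untreated interval ended below that of the combined pool and overlapped that of VD3. Its relative difference with VD3, 0.56, was the largest of any member in that comparison. Sdhc (chromosome 1, 171127165 to 171150603) was summed over 2 loci, at 299.6, 338 and 203 FPKM. One locus stood at 90.3, 70.1 and 47.2 FPKM and the other at 209, 267 and 156, so the loci differ in which treated pool was highest. The summed relative difference was 0.29 with VD3 plus MM-401 and 0.36 with VD3.

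Complex III takes electrons through the Rieske protein Uqcrfs1 and the cytochrome Cyc1, which sit with the core proteins Uqcrc1 and Uqcrc2 and a set of small subunits. The small subunit Uqcrq (chromosome 11, 53427922 to 53430831) was the most abundant, at 1466 FPKM with VD3 plus MM-401 (941 to 1992), 868 with VD3 (581 to 1156) and 516 in untreated cells (347 to 686). The combined and the untreated intervals did not overlap, and its relative difference of 1.23 was the only one past 2-fold in the complex. Uqcr10, another small subunit, came next with 929, 595 and 397 FPKM, and stood just under the line with 0.95 with VD3 plus MM-401 and 0.21 with VD3.

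Before adjustment, the electron carriers of complex III differed less than its small subunits with VD3 plus MM-401 against untreated. Cyc1 stood at 340, 327 and 207 FPKM and Uqcrfs1 at 158, 147 and 92.8. Their relative differences were 0.44 and 0.49 with VD3 plus MM-401, and 0.28 for each with VD3. The treated pools were nearly level with one another for both genes, at 0.04 and 0.08 between them. Uqcrc1 was alike, at 350, 348 and 215 FPKM. After the adjustment for GC content and length described below, Cyc1 stood at 0.12 and Uqcrfs1 at 0.10 with VD3 plus MM-401. In that comparison the small subunits Uqcrq, Uqcr10, Uqcrh, Uqcr11 and Uqcrb had adjusted values of 0.48, 0.19, 0.21, 0.22 and -0.11.

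Uqcrc2 (chromosome 7, 120635176 to 120659524) was the member of complex III that went another way. It stood at 261 FPKM with VD3 plus MM-401 (85.6 to 437), 394 with VD3 (207 to 580) and 243 in untreated cells (124 to 362), and all intervals overlapped. Its relative difference was -0.17 with VD3 plus MM-401 and 0.32 with VD3 against untreated, and -0.61 between the treated pools, the lowest of any member in that comparison. By estimated count, the difference from untreated with VD3 plus MM-401 was 0.11, so its sign rests on the unit. Uqcrb, a small subunit, had the lowest difference of complex III with VD3, at -0.22, and Uqcr11 the highest, at 0.42. Uqcrb stood at 193, 118 and 106 FPKM, Uqcr11 at 330.5, 252 and 145, and Uqcrh, the hinge protein, at 775, 542 and 327.

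Cytochrome c, the mobile carrier between complexes III and IV, is encoded by Cycs in somatic cells and by Cyct in the testis. Cycs (chromosome 6, 50562563 to 50566538) was listed at 2.196 FPKM with VD3 plus MM-401 (1.17 to 3.22), 1.01 with VD3 (0.515 to 1.51) and 0.718 in untreated cells (0.326 to 1.11). The combined and the untreated intervals did not overlap, but all 3 levels lie below the minimum for a comparison. Cyct stood at 76.6, 70.4 and 68.9 FPKM, and so made up 97.2%, 98.6% and 98.97% of the FPKM of the pair. Of the 7 testis and germ cell markers, 3 were at 0 in each pool and the rest summed to 22.6, 18.2 and 38.5 FPKM. By summed FPKM these markers were highest in the untreated pool, where the FPKM of Cyct was lowest, with overlapping intervals. Relative to the median gene, Cyct was lower than in untreated cells, at -0.12 with VD3 plus MM-401 and -0.34 with VD3. The part of germ-cell transcripts in the Cyct level was not tested.

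The promoter of Cycs holds the NRF1 letters beginning 60 bases before its start, and is shown because this gene was listed lowest among the ubiquitous members.
Cycs, chr6:50566540-50566819, minus strand: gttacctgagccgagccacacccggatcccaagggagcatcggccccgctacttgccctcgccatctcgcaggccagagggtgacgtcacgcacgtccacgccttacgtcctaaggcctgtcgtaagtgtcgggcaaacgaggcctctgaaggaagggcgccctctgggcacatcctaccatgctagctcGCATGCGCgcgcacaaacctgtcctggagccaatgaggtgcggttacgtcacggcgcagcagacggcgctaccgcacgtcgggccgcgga

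Complex IV had 5 of the 12 members that were higher with VD3 plus MM-401, and all 12 of its compared members were above the median gene there. Cox6b1 (chromosome 7, 30616861 to 30626151), a subunit at the face towards cytochrome c, was the most abundant. It stood at 2610 FPKM with VD3 plus MM-401 (1584 to 3636), 1561 with VD3 (1028 to 2093) and 948 in untreated cells (624 to 1273). The combined interval lay above the untreated one and overlapped that of VD3, and the relative difference from untreated was 1.19 with VD3 plus MM-401 and 0.34 with VD3. Cox6c (chromosome 15, 35925886 to 35938246) stood at 868, 436 and 253 FPKM, with relative differences of 1.502 and 0.41; the intervals of the outer pools, 276 to 1461 and 125 to 381, overlapped. Cox7a2 stood at 992, 578 and 403 FPKM and Cox8a, the ubiquitous form of subunit VIII, at 701, 441 and 271. Their relative differences were 1.03 and 1.09 with VD3 plus MM-401 and 0.15 and 0.33 with VD3, and the combined and untreated intervals of each did not overlap.

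Cox6b2 (chromosome 7, 4751792 to 4753094) is the testis form of subunit VIb. It stood at 639 FPKM with VD3 plus MM-401 (408 to 871), 317 with VD3 (210 to 423) and 182 in untreated cells (120 to 244). Its relative difference of 1.53 with VD3 plus MM-401 was the largest of complex IV, and that of 0.42 with VD3 was the largest of the complex in that comparison too. The combined and untreated intervals did not overlap, while that of VD3 overlapped both. It supplied 19.7% of the summed FPKM of Cox6b1 and Cox6b2 with VD3 plus MM-401, 16.9% with VD3 and 16.1% in untreated cells. The summed FPKM of the 7 testis and germ cell markers, given above, was lower in both treated pools than in the untreated one. Only 2 of them reached the minimum for a comparison. The part of germ-cell transcripts in the Cox6b2 level was not tested.

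Cox7a1, the form of subunit VIIa found in heart and skeletal muscle, supplied most of the FPKM of its family. Summed over 2 loci it stood at 1628 FPKM with VD3 plus MM-401, 1088 with VD3 and 794 in untreated cells, or 58.8%, 61.0% and 62.6% of the sum of Cox7a1, Cox7a2 and Cox7a2l. The 7 muscle and heart markers in the table summed to 9.94, 7.46 and 6.35 FPKM. The other muscle forms were near 0: Cox6a2 stood at 0.284, 0.408 and 0 FPKM against 1078, 715 and 488 for Cox6a1, and Cox8b was listed at 0 in every pool. Cox7b2 and Cox8c, forms of the testis, and Cox4i2, a form of the lung, stayed below 3 FPKM in every pool. Cox6a2, Cox7b2, Cox8b and Cox8c made up at most 0.41% of the FPKM of their families in any pool.

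Cox7b (chromosome X, 106015700 to 106022450) and Cox7c were the only compared members of complex IV below the median gene with VD3 alone. After the adjustment for GC content and length described below, Cox7b stood at -0.18 there, near Cox7a1 at -0.17, and Cox7c at -0.81. Cox7b was at 1199 FPKM with VD3 plus MM-401, 634 with VD3 and 679 in untreated cells, with relative differences of 0.55, the lowest of the complex, with both agents and -0.47 with VD3. Cox7c was at 35.9 (19.4 to 52.5), 12.4 (5.28 to 19.5) and 15.6 FPKM (8.83 to 22.3). Its difference with VD3, -0.68, was the lowest of any member, and that of 1.44 between the treated pools was the largest, with overlapping intervals. Cox5a, Cox5b and Cox7a2l, the last also known as the supercomplex factor SCAF1, were 0.97, 0.86 and 0.77 above the median gene with VD3 plus MM-401 and 0.26, 0.32 and 0.35 above it with VD3.

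Complex V consists of a catalytic head (F1) in which 3 α and 3 β subunits surround a stalk of γ, δ and ε, and a membrane part (Fo) with a ring of c subunits. Atp5b (chromosome 10, 128083273 to 128090391), the β subunit, had the highest FPKM of all members in every pool, at 4872 with VD3 plus MM-401 (1036 to 8708), 3179 with VD3 (1129 to 5228) and 1991 in untreated cells (753 to 3230). Atp5a1 (chromosome 18, 77773729 to 77782869), the α subunit, came next in the complex by its mean level, at 1532, 1492 and 931 FPKM. The relative difference with VD3 plus MM-401 was 1.02 for Atp5b and 0.45 for Atp5a1, and with VD3 it was 0.30 and 0.31. The stalk genes Atp5c1 (γ) and Atp5d (δ) stood at 443, 402 and 236 FPKM and at 529, 360 and 253 FPKM. They were 0.63 and 0.79 above the median gene with VD3 plus MM-401.

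Atp5e (chromosome 2, 174461072 to 174464105), the ε subunit, had the largest relative difference of the head with VD3 plus MM-401 against untreated. It stood at 1017 FPKM with VD3 plus MM-401 (612 to 1423), 502 with VD3 (336 to 668) and 304 in untreated cells (203 to 405), with relative differences of 1.47 and 0.35 against untreated. The combined interval lay above the untreated one and overlapped that of VD3, and the difference between the treated pools was 0.995, just below 2-fold. After the adjustment for GC content and length described below, Atp5e stood at 0.70 with VD3 plus MM-401 and Atp5b at 0.77.

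Before the adjustment described below, the small subunits around the membrane part and the peripheral stalk held most of the other large differences. Atp5k (chromosome 5, 108433244 to 108434448), subunit e, stood at 639 FPKM with VD3 plus MM-401 (389 to 889), 319 with VD3 (213 to 424) and 173 in untreated cells (114 to 232). Its relative difference of 1.61 with VD3 plus MM-401 was the largest of all members, that of 0.51 with VD3 the largest of complex V, and the intervals of the outer pools did not overlap. Atp5h (subunit d) stood at 552, 278 and 193 FPKM and Atp5j2 (subunit f) at 344, 181 and 119. Their relative differences were 1.24 and 1.25 with VD3 plus MM-401 and 0.15 and 0.22 with VD3, and the outer intervals were apart for Atp5h and overlapped for Atp5j2. The peripheral stalk genes Atp5f1 (subunit b) and Atp5o (the oligomycin sensitivity protein) were 0.57 and 0.89 above the median gene with VD3 plus MM-401, and -0.07 and 0.31 with VD3. Atp5o shares its locus with another gene, Donson, and its intervals began at 0. After the adjustment, Atp5k, Atp5j, Atp5j2, Atp5h, Atp5f1 and Atp5o stood at 0.85, 0.76, 0.63, 0.49, 0.27 and 0.18 with VD3 plus MM-401. The head genes Atp5b and Atp5a1 were at 0.77 and 0.42 in this comparison.

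Atp5j (chromosome 16, 84827866 to 84835625) encodes coupling factor 6 of the peripheral stalk. It stood at 1036 FPKM with VD3 plus MM-401 (0 to 2079), 553 with VD3 (264 to 842) and 365 in untreated cells (129 to 600), with relative differences of 1.23 and 0.23 and overlapping intervals. The RefSeq start used here for Atp5j, at 84834976, lies 148 bases from the start of a transcript of Gabpa at 84835124 on the other strand. GENCODE places starts of Atp5j at 84834239, 84835503 and 84835625, so this distance holds for the RefSeq start only. Gabpa encodes the DNA-binding subunit of GABP. Gabpa itself stood at 55.1 FPKM with VD3 plus MM-401 (0 to 151), 43.0 with VD3 (0 to 93.4) and 116 in untreated cells (8.38 to 223), with relative differences of -1.33 and -1.78. The 2 genes of the pair therefore stood on opposite sides of the median gene in both comparisons with untreated cells. Annotated transcripts of both genes overlap here and the counting is not stated to use strand, so reads from the shared stretch cannot be told apart. The promoter entry of Atp5j was picked as the one that holds the YY1 letters, so that match was fixed by the choice. The 100 bases between the first exons of the 2 Gabpa transcripts are shown, read on the Atp5j strand. They hold the ETS and the YY1 letters, beginning 61 and 88 bases before that RefSeq start.
Atp5j, chr16:84835024-84835123, minus strand: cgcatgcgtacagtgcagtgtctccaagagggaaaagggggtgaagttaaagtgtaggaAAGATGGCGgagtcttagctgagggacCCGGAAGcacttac

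The ring subunit c is made from 3 genes whose mature proteins are the same. Atp5g3 (chromosome 2, 73908447 to 73911326) carried 98.6% of their FPKM with VD3 plus MM-401, 98.6% with VD3 and 98.2% in untreated cells, at 1054, 881 and 483 FPKM. Nearly the whole coding sequence of Atp5g1 recurs in pseudogenes (below), and with listed copies counted in, the share of Atp5g3 was 66.6%, 68.5% and 66.2% and that of Atp5g1 33.2%, 31.2% and 33.3%. The Atp5g3 relative difference was 0.85 with VD3 plus MM-401 and 0.49 with VD3, and the intervals of the outer pools did not overlap. Atp5g1 was at 11.1, 9.08 and 4.75 FPKM and Atp5g2 at 3.48, 3.61 and 3.88. Atp5s, coupling factor B, was the lowest of complex V in each comparison by FPKM, at 14.1, 18.3 and 16.4 FPKM, with relative differences of -0.48 with VD3 plus MM-401 and -0.22 with VD3 against untreated and -0.38 between the treated pools. The last was 0.17 by count, and the difference with VD3 was 0.67 after the adjustment for GC content and length described below, the highest adjusted value of any member there. Atp5sl matches the rule by its older name, is annotated today as Dmac2 and is not a known subunit of the synthase; it stood at 44.7, 48.9 and 37.7 FPKM.

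Transcript length moved with these differences. Across the 40 members, the rank correlation of the relative difference with transcript length was -0.72 for VD3 plus MM-401 against untreated, -0.15 for VD3 against untreated and -0.71 between the treated pools. Across 7992 other protein-coding genes it was -0.55, -0.37 and -0.27; these values describe the same libraries and genes are not independent replicates. With GC content the members' correlation was 0.27, 0.30 and 0.05 in the same order, and that of the other genes 0.37, 0.54 and -0.24. The 19 compared members with a transcript under 700 bases had a median of 1.03 with VD3 plus MM-401 and held 10 of the 12 that were 2-fold higher. The 230 other protein-coding genes of that length had a median of 0.75, and 69 of them were 2-fold higher. The 21 longer members had a median of 0.63 and held the other 2, Atp5b and Atp5j2.

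Each difference was therefore also taken from the median of the 100 protein-coding genes nearest in GC content and length. After this, 0 of the 40 members were 2-fold higher in any comparison. The median member stood at 0.25 with VD3 plus MM-401 and 0.12 with VD3 against untreated, and at 0.20 between the treated pools, and 35, 28 and 30 of 40 were above 0. By complex, the adjusted median with VD3 plus MM-401 against untreated was 0.32 in II, 0.12 in III, 0.28 in IV and 0.28 in V. With VD3 plus MM-401 the highest adjusted differences were 0.85 for Atp5k, 0.77 for each of Atp5b and Cox6b2, 0.76 for Atp5j, 0.73 for Cox6c, 0.71 for Sdha and 0.70 for Atp5e.

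**Figure D3:**
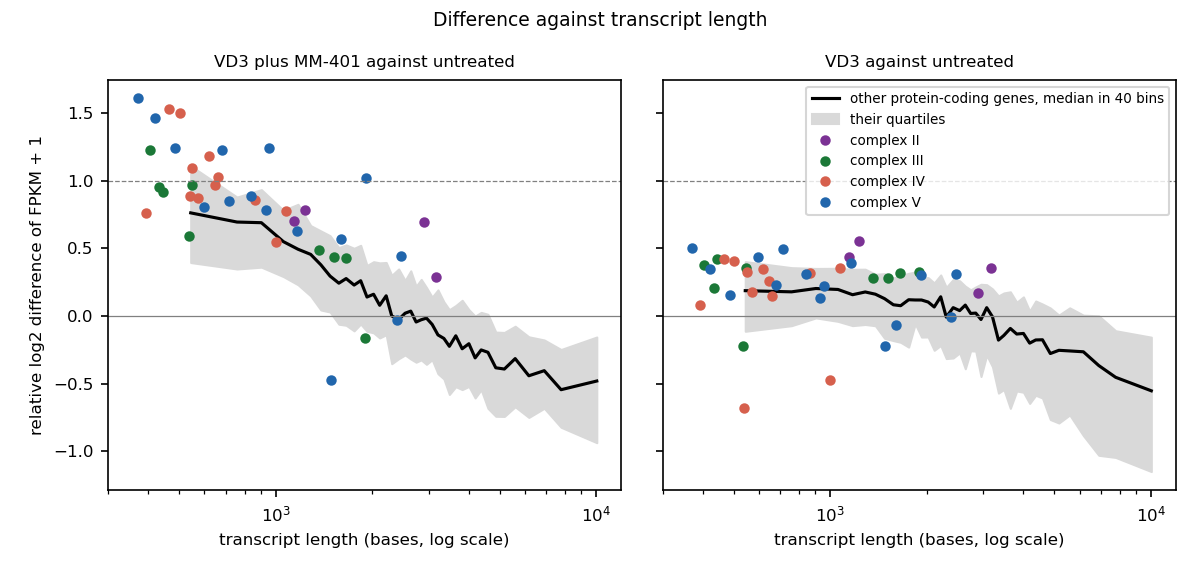
Relative log2 difference of the 40 members against transcript length (log axis), for VD3 plus MM-401 against untreated on the left and VD3 against untreated on the right; points are members by complex, the line is the median of other protein-coding genes in 40 bins of length and the band runs between their quartiles. The short members lie above 0.5 in the left panel, where the line also lies highest at short lengths.

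Some FPKM differences were not matched by the counts. Atp5b, the highest member, had 196180 estimated counts with VD3 plus MM-401, 210040 with VD3 and 132080 in untreated cells, and its relative difference by count was 0.29 against 1.02 by FPKM. The FPKM that 1 count was worth was 1.65 times as high in the combined pool as in the untreated pool. Sdha was at 0.17 by count against 0.69 by FPKM, and Atp5j at 0.85 against 1.23. In all, 5 members differed by more than 0.2 between the units in this comparison, the others being Uqcrc2 and Atp5s, and 2 members, Atp5g1 and Atp5s, with VD3. By count, 12 members were still 2-fold higher with VD3 plus MM-401, without Atp5b and Atp5j and with Uqcr10 and Uqcrh. Between the treated pools, 6 members had the other sign by count than by FPKM: Sdha, Uqcrc1, Atp5a1, Atp5b, Atp5g1 and Atp5s.

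The very low levels of several ubiquitous subunits went with copies of their coding sequence elsewhere in the genome. Coding sequences were cut into windows of 50 bases, and each window was looked for in the transcripts of annotated pseudogenes. Copies annotated otherwise are left out of these shares. Gm11273, annotated as protein-coding, holds 61.9% of the coding windows of Cox5b. In untreated cells it stood at 195 FPKM and Cox5b at 164. In 28 of the 48 members, Cox5b among them, no window was found in a pseudogene, in 15 some were, and in 5 more than 90% were. Those 5 were Cycs, Cox7c, Atp5l and Atp5g2, each with 100%, and Atp5g1 with 99.7%. Among the 48 members, they are the only ubiquitous subunits listed below 16 FPKM in untreated cells. Next came Uqcrb with 73.2%, Cox7a2l with 70.7%, Atp5h with 66.6% and Cox6c with 52.8%. Neither Atp5g3 nor Cyct had any such window. Atp5s had none either and stood just above that line, at 16.4 FPKM in untreated cells. Usmg5, a complex V gene outside the name rule, stood at 2.115 FPKM there, and its windows were not looked for. The line of 16 FPKM was not set in advance. Over the whole transcript, beyond the coding sequence, 8.78% of the windows of Cycs occurred in a pseudogene. That share was 52.95% for Cox7c, 68.5% for Atp5l, 66% for Atp5g1 and 100% for Atp5g2. How reads that match several places were counted is not given in the sources used here, and the part of the copies in these levels was not tested.

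Some of the copies were themselves listed at high levels. Gm12338, an annotated processed pseudogene with every coding window of Cox7c, stood at 762 FPKM with VD3 plus MM-401, 583 with VD3 and 348 in untreated cells, against 35.9, 12.4 and 15.6 for Cox7c. Summed with its copies, an alternative chosen after seeing the data, Cox7c had relative differences of 0.86 with VD3 plus MM-401 and 0.34 with VD3 against untreated, and 0.40 between the treated pools. The value of 1.44 for Cox7c alone, the 1 call in that comparison, did not hold for the sum. Gm10039, a processed pseudogene with most windows of Atp5g1, stood at 513, 391 and 237 FPKM, and the sum of Atp5g1 and its copies was 0.84 and 0.35 above the median gene. Atp5l, below the minimum alone, stood at 15.2, 5.60 and 4.74 FPKM with its copies, 1.22 above untreated with VD3 plus MM-401 and 1.28 above VD3. Sums with copies also passed 2-fold for Cox5a (1.04), Uqcr11 (1.65) and Uqcrh (1.09) with VD3 plus MM-401 against untreated, and for Atp5j (1.003), Atp5k (1.12) and Uqcr11 (1.10) between the treated pools. The copies carried much of these sums: with VD3 plus MM-401, a single copy made up 98.1% of the sum for Atp5j, 64.2% for Uqcr11 and 59.7% for Atp5k, though only 13.7%, 35.2% and at most 2.40% of the coding windows of these genes recur in a pseudogene. Those 3 sums are thus mostly values of the copies. The listed copies of Cycs summed only to 7.57, 7.34 and 4.55 FPKM, those of Atp5l to 11.9, 4.36 and 3.38, and those of Atp5g2 to 0.

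**Figure D4:**
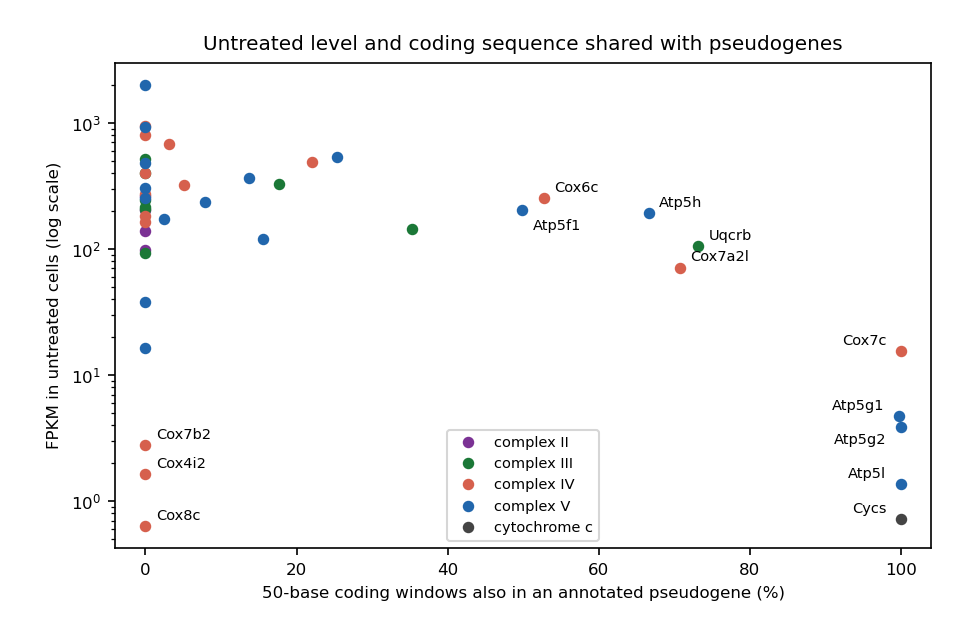
FPKM in untreated cells (log axis) of the 46 members listed above 0 there, against the percent of 50-base windows of the coding sequence that also occur in an annotated pseudogene; colours are complexes. The 5 members at the right edge are all below 16 FPKM. Atp5s, at the left edge, stands at 16.4 FPKM.

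Assembly factors build the complexes and insert their metals and hemes. Of 39 genes listed, 38 were compared. With VD3 plus MM-401 against untreated, 9 were 2-fold higher and 1 was lower, with a median of 0.57, beside 6.01% and 7.81% of all names. They were Cox20 (2.76), Cmc2 (1.51), Pet100 (1.41), Coa6 (1.29), Fmc1 (1.12), Surf1 (1.05), Atpif1 and Cox17, which shares its locus with Popdc2 (both 1.04), and Uqcc3 (1.02), and the lower one was Lyrm7 (-1.43). Atpif1, the inhibitor of the ATP synthase in its reverse direction, was the most abundant, at 2821, 1592 and 1138 FPKM. Cox20, a chaperone of complex IV, stood at 41.3, 15.4 and 4.18 FPKM with intervals that began at 0. After the adjustment for GC content and length, which 33 of the 38 have, the median was 0.19, Cox20 (2.04) and Cmc2 (1.19) were the 2 still 2-fold higher, and Lyrm7 (-1.06) was still lower. By count, 6 were higher and 0 lower.

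With VD3 alone, Cox20 was 2-fold higher (1.29) and Hccs, which attaches heme to cytochromes c and c1, was lower (-1.40), among assembly factors with a median of 0.19. The shares of all names were 0.914% higher and 11.3% lower. Hccs stood at 12.4 FPKM with VD3 plus MM-401 (7.97 to 16.8), 8.88 with VD3 (5.68 to 12.1) and 19.1 in untreated cells (12.6 to 25.6), so the VD3 and untreated intervals did not overlap. Its difference with VD3 was -0.32 after the adjustment, past 2-fold no longer. Between the treated pools, Cox20, Pet100 and the Cox17 locus were higher, Lyrm7 was lower, and the median was 0.35. Of all names, 3.78% were higher and 1.68% lower there. After the adjustment, Pet100 (1.16) was still higher and Lyrm7 (-1.53) still lower, while the Cox17 locus has no adjusted value. By count, Cox20 and Pet100 were higher and 0 were lower. Lyrm7, a chaperone of the Rieske protein, was -0.14 by count with VD3 plus MM-401 against untreated.

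The regulators of nuclear respiratory genes are transcription factors and coactivators. Of 15 genes listed, 10 were compared, with medians of -0.39 with VD3 plus MM-401 and -0.48 with VD3 against untreated and 0.00 between the treated pools. After the adjustment, which 9 of them have, the first 2 medians were -0.23 and -0.20. With VD3 plus MM-401, 0 were 2-fold higher and 2 lower, Gabpa and the Esrra locus, and with VD3 only Gabpa was lower. Among all names, 6.01% were higher and 7.81% lower with VD3 plus MM-401, and 0.914% and 11.3% with VD3. Esrra, the estrogen-related receptor α, stood at 15.2, 38.6 and 35.0 FPKM, with relative differences of -1.42 against untreated and -1.31 against VD3. By count these were 0.23 and -0.01. Nrf1 stood at 89.0, 111 and 86.0 FPKM and Tfam, the mitochondrial transcription factor, at 124, 115 and 135. Ppargc1a, the coactivator PGC-1α, was listed at 0 in every pool.

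The subunits encoded in the mitochondrial genome have no values here: their loci have no valid status in the tables and are listed at 0.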

How the data were processed

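Per the labels' protocols, TruSeq libraries were prepared from column-purified RNA. TopHat2 2.1.1, SAMtools 1.5, Cufflinks 2.2.1 and the build mm10 are named in the submitters' processing notes; their settings, the use of strand and the handling of reads with several matches are not stated there. The authors deposited FPKM with a lower and an upper bound, and estimated counts, which need not be whole, with their variance, for pools of the 2 libraries of a group. The variances entered only as the standard deviation of the count, and 6 deposited columns were not used. Loci that share a name were summed, and 14 loci without a valid status were left out. The count test foreseen needed libraries, so differences of log2(FPKM + 1) from the pooled table, centred on the median name, were used, with no test. The calls for VD3 against untreated were checked on simulated data with planted differences well past 2-fold. The simulation held no trend with length or GC content, and the adjustment and the rule on intervals were not checked. GENCODE vM21 (GRCm38) gave coordinates, length, GC content and pseudogenes, and RefSeq (GRCm38.p6) gave promoters; all 48 members were matched. Python 3.11.15, numpy 2.4.6, pandas 2.3.3, scipy 1.17.1 and matplotlib 3.10.9 were used. Members with values were named by these rules: all of complex II and cytochrome c, the highest 2 by level and both extremes of each comparison in complexes III to V, all past 2-fold, and the isoform families. The members and lists were chosen with earlier results of these data known.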

Additional observations from a re-analysis of the deposited data

How the results depend on the processing

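With VD3 plus MM-401 against untreated cells, the 12 higher members became 26 with no filter or no centring, 30 at 1.5-fold, 8 with intervals apart and 0 after adjustment for GC content and length. The median of 0.86 moved to 0.73 with a mean of at least 20 FPKM, 1.05 with no filter, 1.13 with no centring and 0.25 after adjustment. Between the treated pools, the 1 higher member became 2 with a mean of at least 1 FPKM, 4 with no filter or no centring, 3 by counts under both scalings, 0 with intervals apart or after adjustment, and 17 with 1 lower at 1.5-fold; the median of 0.52 moved to 0.20 after adjustment. With VD3 against untreated, 1 member was lower at 1.5-fold, and the median of 0.31 moved to 0.64 with no filter, 0.68 with no centring and 0.12 after adjustment. Without centring, all names split into 335 higher and 718 lower with VD3 and 1348 and 491 with VD3 plus MM-401 against untreated, where the main splits were 95 and 1176 and 625 and 812. The pseudocounts of 0.1 and 5, protein-coding centring, the filter on the higher pool and loci of a single gene left the counts of members within 1.5 times and the medians within 0.1. No sign of a called member turned. The cause of these shifts, beyond the construction of each setting, was not tested. Leaving out single libraries was not possible, and no depth of a single library is known. No paired analysis was possible because each deposited column pools the 2 libraries of a group.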
